A study of Mus musculus with 6 samples.

Results

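The genes described here are 10 through which myeloid cells activate or restrain T cells, namely Cd274, Pdcd1lg2, Cd80, Cd86, Cd40, Icosl, Havcr2, Lgals9, Cd276 and Tgfb1. They were chosen by name, and each had 1 row among the 34745 genes of the count table. RNA was sequenced from monocytic myeloid-derived suppressor cells (M-MDSCs), immature monocyte-like cells that suppress T cells, with 3 mTOR-/- libraries and 3 WT libraries. Both groups are labelled C57BL/6. The mTOR-/- group came from Lyz-mTOR mice, in which a Cre recombinase driven by the lysozyme gene deletes a floxed mTOR in myeloid cells, and the WT group came from mice of the same strain for which no Cre is stated. For both groups the marrow was cultured with GM-CSF and IL-6 and the cells were sorted as CD11b+ Ly6G- Ly6C high. Neither the age of the mice nor whether each library came from a separate animal is given in the sources used here, so p-values measure the spread between these libraries, which may be technical.

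A T cell that recognizes its antigen also reads ligands on the cell that presents it. CD80 and CD86 bind CD28 on the T cell and give the classical costimulatory signal, and they also bind CTLA-4, which withdraws it. ICOS ligand, the product of Icosl, engages ICOS, while CD40 receives CD40 ligand from the T cell and drives the presenting cell to mature. PD-L1 and PD-L2, encoded by Cd274 and Pdcd1lg2, bind PD-1 and restrain the T cell. B7-H3, encoded by Cd276, belongs to the same B7 family and is mostly described as restraining. TIM-3, the product of Havcr2, is an inhibitory receptor that myeloid cells also carry, galectin-9 (Lgals9) is one of its described ligands, and TGF-beta 1 (Tgfb1) is a secreted cytokine that restrains T cells and favors regulatory T cells.

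The letters upstream of 3 of these genes are shown. Cd274 and Pdcd1lg2 were chosen because they lie side by side and the groups overlapped for Pdcd1lg2 but not for Cd274. Whether these genes differed in their response was not tested. Cd80 was chosen as the costimulatory ligand with the widest separation. Promoters were taken from RefSeq on build GRCm38.p6 for the 8 genes that matched, that is all but Cd40 and Cd86, and are the 250 bases before the start site on the strand of the gene. Capitals mark matches to 7 motifs searched on both strands, namely GAS (TTCNNNGAA), the ISRE core, the NF-kB consensus, an E-box (CACGTG), AP-1 (TGANTCA), the GC box (GGGCGG) and TATAAA. For Cd274 only the 47 bases that no annotated exon covers are printed.
Cd80, forward strand, chr16:38458683-38458932: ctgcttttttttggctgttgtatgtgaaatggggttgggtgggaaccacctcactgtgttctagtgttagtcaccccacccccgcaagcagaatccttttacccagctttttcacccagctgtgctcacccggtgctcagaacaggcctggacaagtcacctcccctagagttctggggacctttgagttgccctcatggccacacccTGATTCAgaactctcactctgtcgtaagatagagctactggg
Pdcd1lg2, forward strand, chr19:29410669-29410918: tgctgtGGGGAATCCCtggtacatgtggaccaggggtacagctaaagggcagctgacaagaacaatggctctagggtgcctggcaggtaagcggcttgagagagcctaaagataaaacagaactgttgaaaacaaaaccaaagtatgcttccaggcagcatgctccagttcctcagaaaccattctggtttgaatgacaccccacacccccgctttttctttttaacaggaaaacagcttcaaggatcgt
Cd274, forward strand, chr19:29367391-29367437: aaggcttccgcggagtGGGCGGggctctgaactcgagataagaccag
The Cd80 window held 1 AP-1 match that ended 35 bases before the start site, and 6.75% of all 32851 promoters held such a match. The Pdcd1lg2 window held 1 NF-kB match, read on both strands at the same place, beside 7.25% of all promoters. The Cd274 window held 1 GC box 25 bases before the start site, a motif found in 32.7% of all promoters. The NF-kB consensus was also matched upstream of Icosl and Tgfb1, AP-1 upstream of Havcr2, the ISRE core upstream of Lgals9 and the GC box upstream of Icosl (1 match), Cd276 (3 matches) and Tgfb1 (5 matches), and no GAS, E-box or TATAAA match was found in the 8 windows. The GC content of the windows lay between 44.8% for Havcr2 and 77.6% for Cd276, with a median of 52.4% over all promoters. A match is a description of letters and not of a bound site.

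The libraries held 12317507 to 14768126 counted reads. Pearson correlations of log2 CPM across genes were 0.978 to 0.981 within WT, 0.952 to 0.973 within mTOR-/- and 0.934 to 0.966 between groups, and mTOR-/- replicate 3 stood apart from its group. Counts over the whole Mtor gene did not separate the labels (883, 983 and 908 counts in mTOR-/- replicates 1, 2 and 3 against 980, 875 and 929 in WT replicates 1, 2 and 3). Counts by exon were not analysed, so these counts do not test the deletion, which the study states it verified in MDSCs. Directions therefore rest on the labels. Lyz2, the lysozyme gene that drives Cre, fell by 1.68 on the log2 scale (adjusted p = 0.00255, edgeR). Values below are given in that order of replicates. Levels within a gene are in CPM, counts scaled to library size with TMM factors, and levels between genes are in FPKM, which also divides by gene length. All 10 genes passed the filter on low counts, and every value lay above 0.245 CPM, the highest level that a count of 3 gave in any library, a floor for counting error only. In bulk RNA, fewer cells that carry a transcript and less transcript per cell cannot be told apart.

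On the FPKM scale the 10 genes spanned a wide range of levels. Cd274 was the most abundant, at 233.6 ± 6.36 FPKM (SD, n = 3) in WT and 178.8 ± 14.2 FPKM (SD, n = 3) in mTOR-/-, above 98.7% of the tested genes. Tgfb1 followed at 63.8 ± 3.44 FPKM in WT and 52.6 ± 12.2 FPKM in mTOR-/-. The levels of Cd86 were 41.2 ± 3.13 and 42.9 ± 1.36 FPKM, and those of Lgals9 were 30.8 ± 1.22 and 29.1 ± 0.611 FPKM, each in WT and then mTOR-/-. These 4 genes held the same ranks in both groups, although the ranges of Tgfb1 and Cd86 overlapped in mTOR-/-. Pdcd1lg2, Cd80 and Icosl formed a middle tier between 7.15 and 21.4 FPKM over all libraries. Within that tier Cd80 ranked below Pdcd1lg2 in WT with overlapping ranges, at 11.2 ± 3.64 against 16.2 ± 2.77 FPKM, and above it in mTOR-/- without overlap, at 19.8 ± 1.38 against 16.2 ± 2.08 FPKM. Havcr2, Cd276 and Cd40 were at or below 1.36 FPKM in every library, and their neighbours in rank overlapped except for Cd276 and Cd40 in WT. The gene lengths behind these values ran from 1645 bases for Pdcd1lg2 to 5709 bases for Tgfb1, so the order depends on the gene models the authors used.

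**Figure D1:**
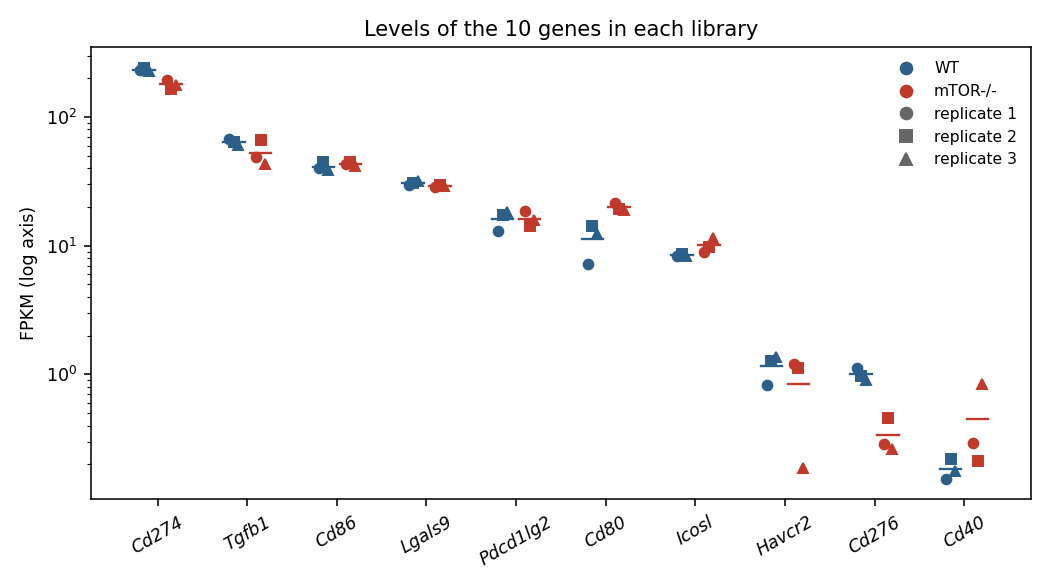
Deposited FPKM of the 10 genes (x axis) on a log axis (y axis), with 1 point per library, blue for WT and red for mTOR-/-, and a line at each group mean of 3 libraries. Cd274 lies highest in all 6 libraries, Havcr2, Cd276 and Cd40 lie lowest, and Cd276 shows 3 red points below 3 blue points.

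Comparing mTOR-/- with WT asks how suppressor cells of Lyz-mTOR mice differ in the signals they can offer to T cells. Loss of mTOR and the presence of Cre cannot be told apart here, because no Cre is stated for WT. Of the 10 genes 1, Cd276, was a DEG, down-regulated in mTOR-/-, where a DEG changed at least 2-fold with an adjusted p under 0.05 (quasi-likelihood test in edgeR). Of all 12537 tested genes 1.69% were DEGs, 1.04% up-regulated and 0.654% down-regulated. No gene of the 10 was up-regulated by this test, 3 of them had an unadjusted p under 0.05 against 21.2% of all tested genes, and DESeq2 called 3 at an adjusted p under 0.05 (Cd274, Cd80 and Cd276) against 9.12% of all tested genes, of which only Cd276 was also a DEG by DESeq2, beside 2.85%. At an adjusted p under 0.05 without a fold threshold edgeR still called only Cd276 of the 10, beside 4.04% of all tested genes, 2.18% higher and 1.87% lower. The libraries of the groups did not overlap for 5 of the 10 genes, with Cd80 and Icosl higher and Cd274, Lgals9 and Cd276 lower in mTOR-/-, while 28.4% of all tested genes showed such a separation. The median log2 fold change of the 10 was -0.06, and that of all tested genes was 0.00. By role, the estimates of Cd80, Cd86, Cd40 and Icosl, which activate, were above 0. Those of the other 6, Cd276 included, were below 0, but the estimate for Pdcd1lg2 was -0.02 and changed sign in 5 of 14 alternatives. Cd86 had an estimate of 0.04 with a standard error of 0.09, and Lgals9 one of -0.10 with a standard error of 0.09. Without mTOR-/- replicate 3 the estimate of Cd40 was 0.43 and that of Havcr2 was -0.01. The split by role was not tested. Over all tested genes, 6343 estimates were above 0 and 6194 below. An unadjusted p under 0.05 in edgeR was given to Cd80 among the genes that activate and to Cd274 and Cd276 among the other 6.

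**Figure D2:**
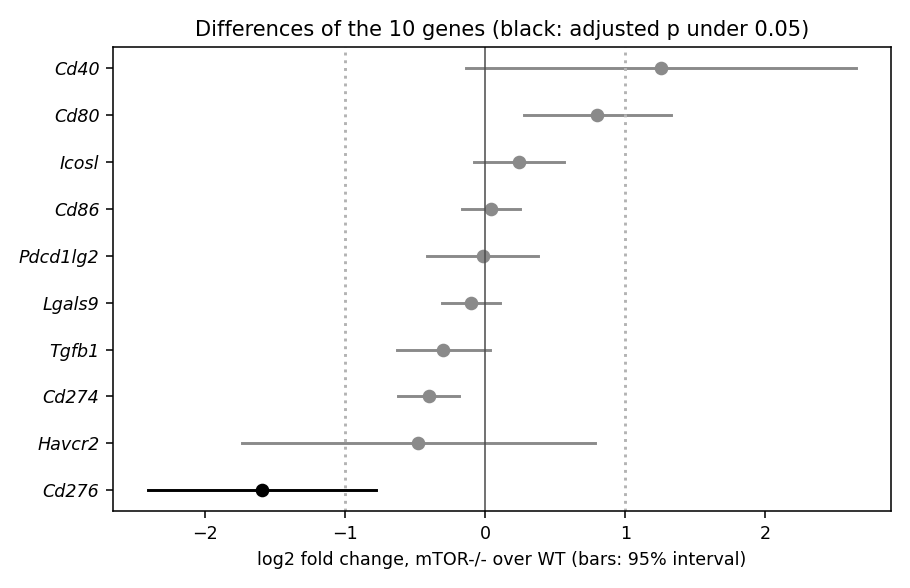
Log2 fold change of mTOR-/- over WT (x axis) for the 10 genes (y axis), with bars for the 95% interval of the edgeR fit and dotted lines at a fold change of 2. The interval of Cd276 lies wholly below 0 and is drawn in black for its adjusted p under 0.05, those of Cd274 and Cd80 also exclude 0 but did not pass the adjustment, and those of Cd40 and Havcr2 are the widest.

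Among the B7 ligands that costimulate, Cd80 (ENSMUSG00000075122, chromosome 16, 38458933 to 38486933) was at 36.5, 32.6 and 31.5 CPM in mTOR-/- and at 12.2, 24.3 and 21.3 CPM in WT. Every mTOR-/- library lay above every WT library, and WT replicate 1 was the lowest of all. The log2 fold change was 0.80 (standard error 0.23, 95% interval 0.27 to 1.32, adjusted p = 0.0931, edgeR). Without WT replicate 1 it was 0.55, and over the 6 fits that each left out 1 library it ranged from 0.55 to 1.00. Cd86 (ENSMUSG00000022901, chromosome 16, 36603869 to 36666081) is the other ligand of CD28 and lies 1.79 Mb from Cd80. It was at 201, 205 and 191 CPM in mTOR-/- and 186, 211 and 184 CPM in WT, so the groups overlapped. Its interval was narrow, with a log2 fold change of 0.04 (standard error 0.09, 95% interval -0.16 to 0.24, adjusted p = 0.839, edgeR). The FPKM of Cd86 was 2.01, 2.29 and 2.21 times that of Cd80 in mTOR-/- and 5.59, 3.16 and 3.15 times in WT.

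Icosl (ENSMUSG00000000732, chromosome 10, 78069360 to 78079525) was at 24.8, 26.9 and 31.3 CPM in mTOR-/- and 22.9, 23.9 and 23.4 CPM in WT. The groups did not overlap, but the separation was small beside the spread within mTOR-/- (log2 fold change 0.24, standard error 0.14, adjusted p = 0.369, edgeR). Cd40 (ENSMUSG00000017652, chromosome 2, 165055627 to 165072948) had only 20, 15 and 60 counts in mTOR-/- and 12, 18 and 14 counts in WT. Its log2 fold change of 1.25 (standard error 0.62, 95% interval -0.14 to 2.65, adjusted p = 0.281, edgeR) rested on mTOR-/- replicate 3, without which it was 0.43.

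Markers of antigen-presenting cells also differed between the groups. The summed level of 5 genes of MHC class II (the activator Ciita with H2-DMb2, H2-Eb1, H2-Ab1 and H2-Aa) ran from 504 to 588 CPM in mTOR-/- and from 91.8 to 224.7 CPM in WT, and all 5 were up-regulated DEGs. H2-Ab1 was called in all 6 fits that left out a library. Without WT replicate 2 the other 4 were not called (adjusted p 0.0553 to 0.0931, edgeR), nor were H2-DMb2 and Ciita without WT replicate 1, H2-Aa and H2-Eb1 without mTOR-/- replicate 1, or Ciita without mTOR-/- replicate 3 or WT replicate 3. A list of 7 dendritic cell markers summed to 193 to 264 CPM in mTOR-/- and 66.9 to 152 CPM in WT. The largest count of 1 gene of this list was 2514, which made up most of the sum in its library. Of the 4 tested, 3 had estimates above 0 and 1 below. Siglech was at 0 in every library, and Cd209a and Xcr1 were at no more than 7 counts. The DEG of the list was Ccr7 (log2 fold change 1.26, adjusted p = 0.0314, edgeR, and 0.0605 to 0.0858 without any 1 library but WT replicate 1). Without WT replicate 1 its log2 fold change was 0.96 (adjusted p = 0.0145, edgeR), under the 2-fold threshold, so it was a DEG in 0 of these 6 fits. WT replicate 1, the lowest library for Cd80, was also the lowest for both sums. Their part in the level of Cd80 was not tested.

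Among the ligands that restrain T cells, Cd274 (ENSMUSG00000016496, chromosome 19, 29367455 to 29388095) was at 706, 596 and 630 CPM in mTOR-/- and 842, 878 and 837 CPM in WT. All mTOR-/- libraries lay below all WT libraries, by more than the spread within either group. The log2 fold change was -0.40 (standard error 0.10, 95% interval -0.62 to -0.19), a level 1.32-fold lower, with an adjusted p of 0.0518 in edgeR, just short of the threshold. It passed in 4 of 14 alternatives, among them DESeq2 (adjusted p = 0.00249), and adjusted p over the alternatives ranged up to 0.190. Pdcd1lg2 (ENSMUSG00000016498, chromosome 19, 29410919 to 29471157) starts 22.8 kb beyond the end of Cd274 with no other annotated protein-coding gene wholly between them. It was at 30.5, 23.4 and 25.8 CPM in mTOR-/- and 21.5, 28.8 and 30.4 CPM in WT, and the ranges of the groups overlapped nearly in full. Its log2 fold change was -0.02 (standard error 0.18, 95% interval -0.42 to 0.38, adjusted p = 0.967, edgeR), and the sign of this estimate changed in 5 of the 14 alternatives. The FPKM of Cd274 was 10.5, 11.6 and 11.1 times that of Pdcd1lg2 in mTOR-/- and 17.8, 13.8 and 12.5 times in WT, without overlap. Against Cd80, the ratio of Cd274 was 9.08, 8.60 and 9.39 in mTOR-/- and 32.5, 17.0 and 18.5 in WT. These ratios were chosen with the values known and carry no test.

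Cd276 (ENSMUSG00000035914, chromosome 9, 58524300 to 58555132) had 20, 33 and 19 counts in mTOR-/- and 89, 81 and 73 counts in WT, that is 1.63, 2.55 and 1.45 CPM against 6.33, 5.53 and 5.20 CPM. The highest mTOR-/- library was at less than every WT library, and Cd276 fell by 1.59 on the log2 scale (standard error 0.36, 95% interval -2.41 to -0.78, adjusted p = 0.0430, edgeR), a level 3.02-fold lower. The call was made at low counts. Of the 6 fits without 1 library it held in 1, that without mTOR-/- replicate 2. Without mTOR-/- replicate 1 or 3 or WT replicate 1, 2 or 3 its adjusted p was 0.0677 to 0.167 (edgeR), and its log2 fold change over the 6 fits ranged from -1.89 to -1.44. In GENCODE M21, exons of Cd276 share 416 bases with Gm10657 on the opposite strand, which had 0 or 1 counts in each library. Exons of Cd274 share 511 bases with AC119228.1, an antisense gene not analysed here, and reads of such pairs cannot be told apart without a strand setting.

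**Figure D3:**
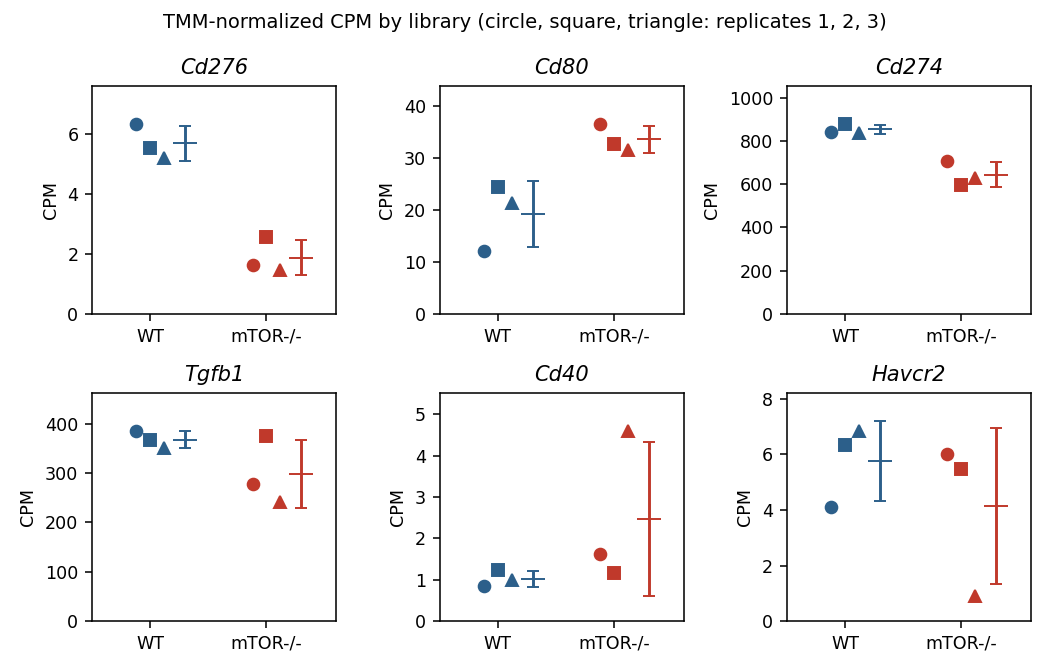
TMM-normalized CPM (y axes, each from 0) of 6 of the genes in WT (blue) and mTOR-/- (red), with 1 symbol per library and the mean ± SD of 3 libraries beside them. Cd276 and Cd274 are lower and Cd80 is higher in all mTOR-/- libraries, while the spread of Cd40 and Havcr2 in mTOR-/- comes from replicate 3 and that of Tgfb1 from replicate 2.

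Havcr2 (ENSMUSG00000020399, chromosome 11, 46454935 to 46481255) had 74, 71 and 12 counts in mTOR-/- and 58, 93 and 96 counts in WT. mTOR-/- replicate 3 was far below the other 5 libraries, and the log2 fold change of -0.48 (standard error 0.56, 95% interval -1.74 to 0.78, adjusted p = 0.665, edgeR) became -0.01 without it. Lgals9 (ENSMUSG00000001123, chromosome 11, 78962974 to 78984946) was at 93.3, 96.0 and 94.6 CPM in mTOR-/- and 96.9, 101 and 106 CPM in WT. The groups did not overlap, yet the log2 fold change was only -0.10 (standard error 0.09, 95% interval -0.31 to 0.10, adjusted p = 0.555, edgeR). Tgfb1 (ENSMUSG00000002603, chromosome 7, 25687002 to 25705077) was at 278, 375 and 242 CPM in mTOR-/- and 385, 366 and 351 CPM in WT. mTOR-/- replicate 2 lay within the WT range and replicates 1 and 3 lay below it. The log2 fold change was -0.30 (standard error 0.15, 95% interval -0.63 to 0.03, adjusted p = 0.284, edgeR), and without mTOR-/- replicate 2 it was -0.51 with an adjusted p of 0.0394 (edgeR).

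The 10 genes act within a larger set of ligands, receptors and regulators, of which 100 in 8 lists were in the table and 86 were tested. DEGs numbered 2 of the 86, or 2.33% beside 1.69% of all tested genes, and 8 of the 86 had an adjusted p under 0.05 at any fold, 4 higher and 4 lower, or 9.30% beside 4.04%. An unadjusted p under 0.05 in edgeR was given to 32 of the 86, 16 higher and 16 lower, beside 21.2% of all tested genes. DESeq2 called 18 of the 86 at an adjusted p under 0.05, 11 higher and 7 lower, beside 9.12%. The median log2 fold change of the 86 was 0.04. Of 12 tested members of other B7 and immunoglobulin family ligands, 1 fell and none rose at an adjusted p under 0.05 in edgeR. This was Slamf7, a SLAM family receptor of leukocytes, at 54.8, 49.5 and 48.1 CPM in mTOR-/- and 80.7, 89.6 and 89.2 CPM in WT (log2 fold change -0.77, adjusted p = 0.00523, edgeR). Of the same 12, 5 had an unadjusted p under 0.05 in edgeR, 1 higher and 4 lower, and DESeq2 called 2, 1 higher and 1 lower. Icam1, which binds the T cell integrin LFA-1, had a log2 fold change of 0.55 (adjusted p = 0.0678, edgeR, and 0.0185, DESeq2). Of 12 tested TNF family ligands and receptors 0 passed in edgeR, 3 had an unadjusted p under 0.05 and DESeq2 called 2. The smallest adjusted p were those of Tnfsf8, the CD30 ligand, at 0.0807 with a log2 fold change of -0.57, and of Tnfsf12, also called TWEAK, at 0.104 with -0.65 (edgeR).

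In the list of CD40 signalling, estimates of 12 of 13 genes were above 0, beside 6343 of all 12537 tested genes. Their median log2 fold change was 0.18. Of the 13, 5 had an unadjusted p under 0.05 in edgeR, all higher, beside 21.2% of all tested genes. DESeq2 called 4 at an adjusted p under 0.05, all higher, beside 9.12%. The groups did not overlap for 6, all higher, beside 28.4%. At an adjusted p under 0.05 in edgeR 1 gene passed. This was Map3k14, the kinase NIK of the non-canonical NF-kB pathway, at 40.1, 38.9 and 46.6 CPM in mTOR-/- and 18.2, 23.6 and 24.7 CPM in WT. It rose by 0.92 on the log2 scale (standard error 0.16, adjusted p = 0.0150, edgeR), and was called in 4 of the 6 fits that left out a library, with an adjusted p of 0.0589 without WT replicate 1 and 0.0553 without WT replicate 2. Nfkb2, which encodes the substrate p100 of that pathway, had a log2 fold change of 0.45 (adjusted p = 0.0598, edgeR). In the interferon gamma and JAK-STAT path to Cd274, 0 of 13 tested genes passed in edgeR, 5 had an unadjusted p under 0.05 and DESeq2 called 1. Irf8, a transcription factor of monocytes and dendritic cells, had a log2 fold change of 0.71 (adjusted p = 0.109), and Socs1, a brake on JAK kinases, one of -0.52 (adjusted p = 0.166, edgeR).

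For the activation and receptors of TGF-beta, 1 of 17 tested genes passed in edgeR. An unadjusted p under 0.05 in edgeR was given to 4, of which 3 were higher and 1 lower, and DESeq2 called 3. Thbs1, whose product thrombospondin 1 can release active TGF-beta from its latent form, was at 15317, 15486 and 14902 CPM in mTOR-/- and 8219, 8176 and 8342 CPM in WT. It rose by 0.89 on the log2 scale (standard error 0.12, adjusted p = 0.00507, edgeR) and was called in 5 of the 6 fits that left out a library, the exception being WT replicate 3 (adjusted p = 0.0534). The coreceptor Tgfbr3 had a log2 fold change of 0.77 (adjusted p = 0.0508, edgeR). Furin, the 1 lower gene, was at 166, 206 and 78.5 CPM in mTOR-/- and 262, 272 and 279 CPM in WT. Its log2 fold change was -0.85 (adjusted p = 0.123, edgeR). Of 7 tested TIM and galectin genes 2 passed in edgeR. An unadjusted p under 0.05 in edgeR was given to 5 of the 7, 2 higher and 3 lower, and DESeq2 called 3, 1 higher and 2 lower. Lgals4 rose by 1.02 on the log2 scale (adjusted p = 0.0439) and was a DEG, and Lgals1, a galectin that restrains T cells, fell by 0.50 (adjusted p = 0.0483, edgeR). Each was called in 1 of the 6 fits that left out a library, that without mTOR-/- replicate 2, and their adjusted p in the other 5 were 0.0563 to 0.180 for Lgals4 and 0.0765 to 0.192 for Lgals1 (edgeR). Of 6 genes of shedding and surface turnover 1 passed, the lysosomal protease gene Ctsb, which fell by 0.68 on the log2 scale (adjusted p = 0.0183, edgeR) but was not called without WT replicate 1, 2 or 3 (adjusted p 0.0636 to 0.102). March8, a ubiquitin ligase that removes CD86 from the surface, had a log2 fold change of -0.44 (adjusted p = 0.169, edgeR). Among 6 tested genes for other soluble T cell suppressors, Nos2, the inducible nitric oxide synthase, fell by 3.34 on the log2 scale (adjusted p = 0.00255) and Ptgs2, which makes prostaglandins, rose by 0.56 (adjusted p = 0.0464, edgeR). The counts of Nos2 were low, and it was not tested where at least 10 counts were required in every library. With limma on log2(FPKM + 1) its log2 fold change was -1.36. Nos2 was called in all 6 fits that left out a library and Ptgs2 in 1, that without mTOR-/- replicate 2, with an adjusted p of 0.0729 to 0.200 in the other 5.

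**Figure D4:**
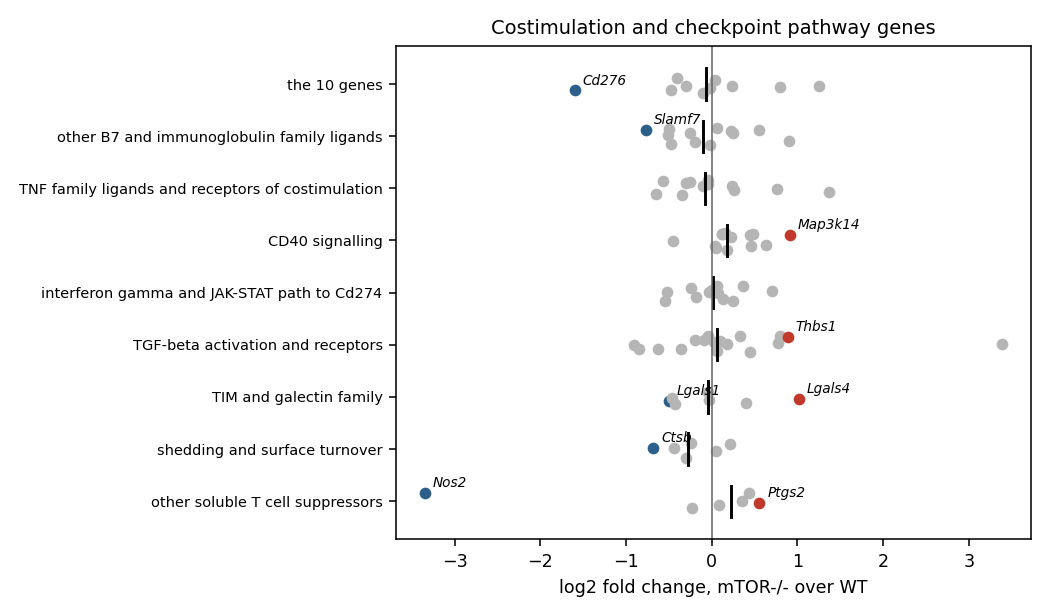
Log2 fold change of mTOR-/- over WT (x axis) for the tested genes of the 10 genes' own list and of 8 related lists (y axis), with 1 point per gene and a black bar at each list's median. Points are colored and named where the adjusted p was under 0.05, red for higher and blue for lower, and 9 genes are named in all.

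The receptors that these ligands meet on T cells were checked in the same libraries, together with markers of other cells. Cd3e, Cd4 and Cd8a had 0 counts in every library, and Pdcd1 and Ctla4 had at most 6. Cd28, the receptor of CD80 and CD86, was nevertheless at 58.2, 47.7 and 48.8 CPM in mTOR-/- and 85.9, 74.7 and 81.1 CPM in WT. It fell by 0.64 on the log2 scale (standard error 0.12, adjusted p = 0.0193, edgeR, and 0.0553 to 0.0937 without WT replicate 1, 2 or 3) and made up most of the summed level of the 12 T cell genes, 50.7 to 62.0 CPM in mTOR-/- and 77.5 to 89.8 CPM in WT.
Of 6 monocyte markers 3 rose (Csf1r, Cd14 and F13a1) and Ly6c2 fell, with sums of 1367 to 1802 CPM in mTOR-/- and 1442 to 1605 CPM in WT. Cd14 was called in all 6 fits that left out a library. Csf1r was not called without WT replicate 1, 2 or 3 (adjusted p 0.0553 to 0.0935), F13a1 not without these or mTOR-/- replicate 1 (0.0609 to 0.105), and Ly6c2 not without mTOR-/- replicate 1 or 2 or WT replicate 1 or 3 (0.0821 to 0.159, edgeR). Ly6g, which the sort gated against, was at 14.1, 10.7 and 15.1 CPM in mTOR-/- and 0.853, 2.39 and 5.06 CPM in WT (log2 fold change 2.26, adjusted p = 0.0365, edgeR), and without any 1 library but WT replicate 3 its adjusted p was 0.0548 to 0.127. Among the other neutrophil markers Ltf and Ngp fell, and the 7 markers summed to 1743 to 2146 CPM in mTOR-/- and 1558 to 1878 CPM in WT. Ltf was called in all 6 such fits, and Ngp was not called without mTOR-/- replicate 1 or 2 or WT replicate 1 or 3 (adjusted p 0.0667 to 0.150, edgeR). Of 5 mast cell and basophil markers Cpa3 and Mcpt8 fell, and the list summed to 155 to 220.2 CPM in mTOR-/- and 719 to 898 CPM in WT. Cpa3 was called in all 6 such fits, and Mcpt8 was not called without mTOR-/- replicate 1 or 3 or WT replicate 1 or 3 (adjusted p 0.0771 to 0.152, edgeR). Of the 6 tested macrophage markers 0 passed in edgeR, 3 had an unadjusted p under 0.05 and DESeq2 called 2, with sums of 744 to 917 CPM in mTOR-/- and 946 to 1058.5 CPM in WT. Erythroid genes summed to 2.12 to 3.82 CPM in mTOR-/- and 6.68 to 11.4 CPM in WT, and of 2 tested 0 passed in edgeR while DESeq2 called 2, both with an unadjusted p under 0.05. B cell genes summed to at most 6.93 CPM and NK cell genes to at most 2.05 CPM in any library, with Ncr1 and Gzma at 0, and 0 of the 3 tested B and NK cell genes had even an unadjusted p under 0.05 in edgeR or passed in DESeq2. What these other cells contributed to the levels of the 10 genes was not tested.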

How the data were processed

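RNA from sorted M-MDSCs was sequenced in 3 mTOR-/- and 3 WT libraries, grouped by the sample labels. The deposited table gives counts, which the study's methods describe as Bowtie2 alignment to mm10 and HTSeq counting, while the submitters' processing notes list HISAT2 2.0.4, StringTie 1.3.0 and the builds GRCm38.p4 and mm9. The positions matched GENCODE M21 on GRCm38 in start and end for 80.8% of the 34267 gene identifiers found there. No version of the first pair of tools, annotation or strand setting is given in the sources used here. The deposited FPKM values equal the authors' counts divided by 1 length per gene and the library's total count (within a relative 0.001 for all 17309 genes with a count), so they hold no information beyond the counts. The authors' own group comparison (fold changes and p-values) was not used, nor were 24 of the 36 columns of per-sample values, which repeat the same data.

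Counts were analysed in R 4.3.3 with edgeR 4.0.16: filterByExpr (minimum count 10, minimum total 15), TMM, and the quasi-likelihood F test, adjusted by Benjamini-Hochberg over all 12537 tested genes, at an adjusted p of 0.05 and, for DEGs, a fold change of 2. The coefficient of biological variation estimated in that fit was 19.0%. Standard errors and 95% intervals come from the F statistic of that fit. The method was tested on simulated data. Alternatives were DESeq2 1.42.0, RLE and upper-quartile normalization, 2 other filters on low counts, no fold threshold, limma 3.58.1 on log2(FPKM + 1) and log2(FPKM + 0.1), a block for the replicate number, and omission of every library singly.

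The 10 genes, the pathway lists and the marker lists were chosen with earlier results of these data known. From the other lists, those past the adjusted p threshold were named and, where a pathway list had at most 1, the 2 with the smallest adjusted p and a mean of at least 50 counts. Markers at 0 in every library were named too. Cd209a, Xcr1, Pdcd1, Ctla4 and Furin were named after their values were seen. Symbols that the table spells otherwise were matched by GENCODE gene identifier, and Lrrc33 is an older symbol of Nrros.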

Additional observations from a re-analysis of the deposited data

How the results depend on the processing

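DEGs over all genes numbered 212, and 507 without a fold threshold, 357 with DESeq2, 129 with limma on log2(FPKM + 1) and 114 to 229 with 1 library left out. Of the 10 genes 1 was called, Cd276. It was also the only one called under RLE and upper-quartile normalization, both other filters, DESeq2, limma on log2(FPKM + 0.1) and no fold threshold. The number was 0 with limma on log2(FPKM + 1), where its adjusted p was 0.0272 and its log2 fold change, which this pseudocount compresses, was -0.59. It was 0 to 1 with 1 library left out. Of the pathway genes 2 were DEGs, 8 had an adjusted p under 0.05 without a fold threshold, and 3 were DEGs with DESeq2. The number was 1 with at least 10 counts in every library (where Nos2 was not tested) and with limma on log2(FPKM + 1). With 1 library left out the number was 1 to 2. The sign of the log2 fold change changed for Pdcd1lg2 among the 10 genes, to 0.0074 and 0.0083 with limma at pseudocounts of 1 and 0.1, and it ranged from -0.17 to 0.076 with 1 library left out. The cause of these changes was not tested, apart from the pseudocount and the filter.

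The replicate numbers in the labels showed no sign of pairing the libraries: deviations from the group means correlated across genes at -0.08, -0.03 and -0.06 for equal numbers and at 0.00 to 0.06 for unequal ones. With so few libraries per group, these correlations cannot decide whether equal numbers shared a preparation. With the replicate number as a block there were 164 DEGs, 0 among the 10 genes (Cd276 adjusted p = 0.106, edgeR) and 1 among the pathway genes. Depth limits Cd40, Cd276 and Havcr2, which had 12 to 96 counts per library.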
